A study of Mus musculus with 8 samples.

Results

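A set of 10 genes that mark the granule neurons of the dentate gyrus were followed: Prox1, C1ql2, C1ql3, Dsp, Tdo2, Stxbp6, Calb1, Trpc6, Pdzd2 and Npnt. They were found by their gene name among the probes of a whole-genome expression array, where 15 of the 39429 non-control probes belong to the 10 genes, out of 30139 genes in all. RNA came from the whole hippocampus of adult C57BL/6 mice, and the array signal was compared between 2 genotypes. WT mice were homozygous for a loxP-flanked Ctcf gene (Ctcf loxP/loxP) and carried no Camk2a-Cre. CKO mice had the same Ctcf loxP/loxP alleles and were positive for Camk2a-Cre, so the effects of the Cre transgene and of Ctcf loss cannot be told apart.

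Each genotype had 3 pools of RNA from 3 mice each. The mice of pool 1 were 19 to 23 weeks old, 2 of them female and 1 male. Those of pool 2 were all female (18 to 19 weeks), and those of pool 3 were all male (15 to 17 weeks). Pool 1 of each genotype was measured on 2 arrays, so 8 arrays stand for 6 pools, and the replicate is the pool. The animals had been through behavioural tests before the tissue was taken, in both genotypes. CTCF is a zinc finger protein that organises chromatin loops and insulates genes, and the Camk2a promoter drives Cre mainly in excitatory forebrain neurons after birth. Interneurons and glia are not its main targets. The hippocampal layers that recombined were not stated.

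Granule neurons are the principal cells of the dentate gyrus. They receive cortical input on their dendrites and send axons, the mossy fibres, to the hilus and to CA3 pyramidal cells. Prox1 is the homeobox factor that gives and keeps their identity. C1ql2 and C1ql3 are secreted C1q-like proteins that the mossy fibres release, where they bind neurexins and gather kainate receptors across the synapse. Calb1 encodes calbindin, a calcium buffer that mature granule neurons hold in large amounts and that CA1 pyramidal neurons and some interneurons also make. Several of the other markers are also made elsewhere in the hippocampus, so none of the values below is a count of granule neurons.

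The array reads each gene through a probe of 60 bases. A stretch of 30 bases, the first 30 except in the second Calb1 probe, is shown for the probes behind the 6 genes with the lower CKO means, because the results rest on what these letters capture, and the second probes of Dsp and Calb1 are added because they gave other readings. Capitals mark AATAAA, the polyadenylation signal, which lies in the last 30 bases of the second Calb1 probe, shown for that reason, and in 1 of the 15 probes of these genes, against 12.6% of all 39429 probes.
C1ql2: cccactacaggcaagttcagctgccaggtg
C1ql3: gacctgaccttttctttagataagtaagca
Calb1, probe used: gaagtagcagttcctgatgaggaataaggg
Calb1, second probe: tttaaagattagccaacAATAAAtcctaga
Trpc6: agagtcctaatatcaactttttgggtgatt
Stxbp6: gagacaagttaacagctgttcttttggttc
Dsp, probe used: aaattacactgactactggtggcttagtac
Dsp, second probe: aatttgagacaggaaattgagaaattccaa

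Levels are on a log2 scale on which each array's own 75th percentile of processed signal is 0, and a difference of 1 is a doubling. A level on this scale is compared only with the same gene's level on other arrays, since probes differ in how well they hybridise. A gene was tested when at least 1 of its probes was detected, that is well above background, on all arrays of WT or all arrays of CKO. The brightest such probe stood for the gene. In all, 18336 genes were tested, including 7 of the 10 markers. The 7 probes used were well above background on all 4 WT and all 4 CKO arrays, so no marker entered the test through 1 genotype alone. Prox1, Tdo2 and Npnt were too dim and are described at the end of the results. Differences were tested with limma across all 18336 genes over the 6 pools, two-sided, with Benjamini-Hochberg adjustment and a threshold of 0.05.

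Of the 8 arrays, 1 stood apart, and it was the second array of WT pool 1. Its median correlation with the other arrays was 0.944, against 0.984 to 0.991 for the rest, and its 75th percentile signal was 2112, against 2883 on the second array of CKO pool 1 and 3949 to 5104 on the other 6. Between 59.2% and 66.0% of the probes were well above background on an array, and no probe was saturated. The marker results and the list counts are therefore also given without it. Ctcf itself, through a probe whose place relative to the deleted part is not given, was at 1.00 ± 0.15 in WT and 0.13 ± 0.07 in CKO (SD, n = 3), 1.82-fold lower, with a limma adjusted p of 0.143 that became 0.00425 without that array and 0.0294 with the pool number as a block. The pool numbers were taken to pair the samples, as set out in the processing notes, though the correlations behind this were weak on first arrays alone.

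Across all genes the limma test called 5 of 18336 at an adjusted p under 0.05 (0.0273%), each of them higher in CKO, and it called 0 lower (0%), while 469 genes (2.56%) were lower at an unadjusted p under 0.05. No marker was among the 5. Of the 7 tested markers, 6 had the lower mean in CKO, where 50.6% of all genes did, and 5 of the 7 had an unadjusted p under 0.05 in that direction, while none had one in the other, where 2.91% of all genes did. In 5 of the 7 the highest CKO pool was below the lowest WT pool, against 5.62% of all genes. There were also 5 that were lower in CKO within each of the 3 pool numbers, against 13.9% of all genes. The median difference of the 7 was -0.42, and that of all genes tested was -0.0031. The markers and all lists below were chosen with earlier results of these data known. The shares of all genes therefore describe the lists and test nothing. In pieces of whole hippocampus, fewer granule neurons and less RNA per neuron cannot be told apart.

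**Figure D1:**
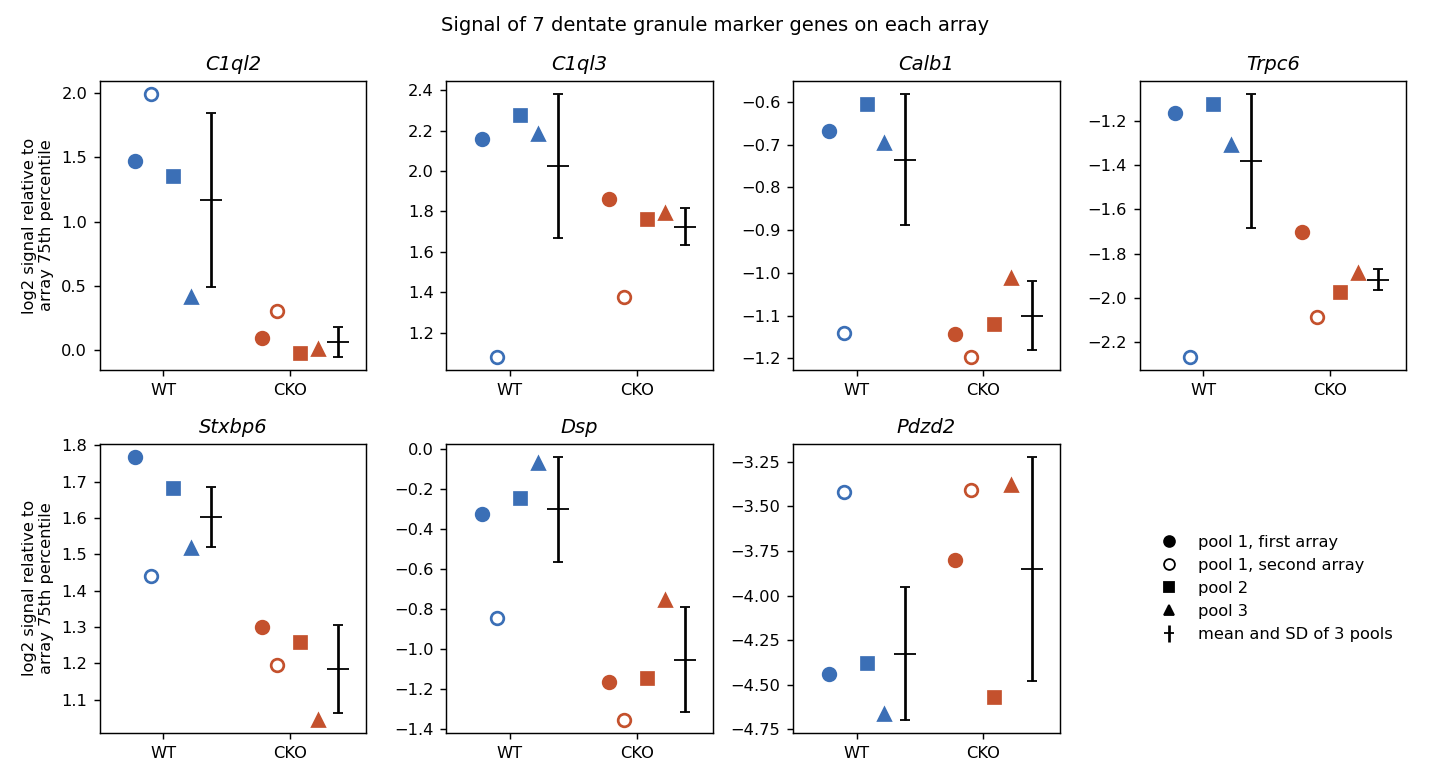
Signal of the 7 tested marker genes on each of the 8 arrays, as log2 relative to the array's 75th percentile, with WT in blue and CKO in orange, the arrays of pool 1 as filled and open circles, pool 2 as squares and pool 3 as triangles. Black bars give the mean and SD of 3 pools. C1ql2 and Stxbp6 show no overlap between the genotypes on any array, while the open WT circle falls among or below the CKO arrays for C1ql3, Calb1, Trpc6 and Dsp.

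Among the secreted proteins, C1ql2 had the widest difference of the 7. Its level was 1.73, 1.35 and 0.42 in WT pools 1, 2 and 3 and 0.20, -0.02 and 0.01 in the CKO pools. All 3 CKO pools lay within a narrow band below the lowest WT pool, whereas the WT pools spread widely and pool 3, the males, was the lowest. Means were 1.17 ± 0.68 in WT and 0.06 ± 0.12 in CKO (SD, n = 3), a difference of -1.10 (SE 0.30, 95% interval -1.78 to -0.43) or 2.15-fold. The unadjusted limma p was 0.00540 and the adjusted p 0.479, so C1ql2 was not called, and 0.235% of all genes had a lower difference. With weights for each pool's deviation in the fit, the difference shrank to -0.60 (adjusted p 0.134).

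With the pool number as a block, which compares each CKO pool with the WT pool of its number, 103 genes were called (0.562%), 31 of them lower (0.169%), and C1ql2 was the 1 marker among them, at a limma adjusted p of 0.0470. Within pool numbers the difference was -1.53, -1.37 and -0.40, so it was smallest in pool number 3. The pools of that number differ from the others in both sex and age, with 1 pool per genotype, and the gap between pool numbers was not tested. The blocked call was lost at an adjusted p of 0.0783 without the second array of WT pool 1, at 0.0810 with quantile scaling, at 0.0583 without probes holding a GAA repeat and at 0.0627 with outlier spots kept. That WT array was the highest of all for C1ql2, at 1.99 against 1.47 on the first array of the same pool. The CKO pool 1 arrays read 0.31 and 0.09, so both second arrays were the higher ones, by 0.52 and 0.21.

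C1ql3, the second C1q-like protein of mossy fibres, did not separate the genotypes. Its level was 1.62, 2.28 and 2.18 in the WT pools and 1.62, 1.76 and 1.79 in the CKO pools, so the pools of number 1 were level and the other numbers differed by -0.51 and -0.39. Means were 2.02 ± 0.36 and 1.72 ± 0.09 (SD, n = 3), and the difference of -0.30 (95% interval -0.71 to 0.11) had a limma adjusted p of 0.999. The WT pool 1 value averaged 2.16 on the first array and 1.08 on the second. Without that second array, the WT pools read between 2.16 and 2.28, all CKO pools lay below them, and the difference was -0.48 with an adjusted p of 0.0574, still short of the threshold.

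The proteins that C1ql2 and C1ql3 work with, and their relatives, were taken as a list of 12 genes, of which 10 were tested. Of these, 5 were lower and 5 higher in CKO, none was called, 0 had an unadjusted limma p under 0.05, and their median difference was -0.01. It was -0.05, again with 5 lower, when the second array of WT pool 1 was left out. Nrxn2, a presynaptic neurexin, was the lowest by p, with a difference of -0.25 (SE 0.11, adjusted p 0.918). Nrxn3, the neurexin that binds C1q-like proteins with kainate receptors, differed by -0.15 (SE 0.12, adjusted p 0.999). Grik2, which encodes the kainate receptor subunit GluK2, differed by -0.15 (SE 0.17, adjusted p 0.999). Adgrb3, the adhesion receptor of the C1q-like family, differed by 0.04 (SE 0.22, adjusted p 0.999). C1ql1 and C1ql4 were below the filter.

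Calb1 was lower in CKO by a small margin. WT pools read -0.90, -0.61 and -0.70 and CKO pools -1.17, -1.12 and -1.01, without overlap between pools. The difference was -0.36 (SE 0.15, 95% interval -0.71 to -0.02), 1.29-fold, with an unadjusted limma p of 0.0409 and an adjusted p of 0.890. Without the second array of WT pool 1, which read -1.14 against -0.67 on the first, the difference was -0.44 (adjusted p 0.123). The second Calb1 probe, well above background on 3 of 4 WT and 4 of 4 CKO arrays, gave -0.23 (SE 0.27) in the fit of every probe, with pool-number differences of 0.19, -0.61 and -0.26. Its genotypes overlapped.

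Trpc6, a cation channel that opens on diacylglycerol, read -1.72, -1.13 and -1.31 in the WT pools and -1.89, -1.97 and -1.89 in the CKO pools. The CKO pools lay close together and below every WT pool. The difference was -0.53 (SE 0.19, 95% interval -0.97 to -0.10), 1.45-fold, with an unadjusted limma p of 0.0224 and an adjusted p of 0.791. The second array of WT pool 1 read -2.27, below all 4 CKO arrays, while the other 3 WT arrays lay between -1.31 and -1.13. Without it the difference was -0.72 (SE 0.12) and the limma adjusted p 0.0417, a call that was lost with the pool number as a block (adjusted p 0.0629).

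Stxbp6 encodes amisyn, which binds syntaxin and competes for SNARE complexes at the plasma membrane. Its pools were the tightest of the 7 in WT, at 1.60, 1.68 and 1.52, against 1.25, 1.26 and 1.05 in CKO. Every WT array, the second of pool 1 included at 1.44, lay above every CKO array, of which the highest was 1.30. The difference was -0.42 (SE 0.12, 95% interval -0.70 to -0.14), 1.34-fold, with an unadjusted limma p of 0.00829 and an adjusted p of 0.578, and it was -0.36, -0.42 and -0.47 within the 3 pool numbers. Stxbp6 was not called under any of the 29 alternatives, where its difference ranged from -0.47 to -0.35.

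Dsp encodes desmoplakin, the plaque protein that ties desmosomes to intermediate filaments in epithelia and heart, and granule neurons are among the few neurons that express it. The WT pools read -0.59, -0.24 and -0.07 and the CKO pools -1.26, -1.14 and -0.75, without overlap. The difference was -0.75 (SE 0.20, 95% interval -1.20 to -0.30), 1.68-fold, with an unadjusted limma p of 0.00477, the smallest of the 7, and an adjusted p of 0.456. It was of like size within each pool number, at -0.67, -0.90 and -0.68. The probe used for Dsp sits on 10 spots of each array, whereas every other probe of the 10 genes sits on 1. Its 2 readings of WT pool 1 were -0.32 and -0.85, and the second of these lay just below CKO pool 3 at -0.75. Without that array Dsp was called, at -0.84 (SE 0.15) with a limma adjusted p of 0.0498, close to the threshold, and 0.0462 with the pool number as a block. The second Dsp probe was not well above background on any array, and its signal of 27.1 to 31.8 gives no second reading.

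Pdzd2, which encodes a protein with many PDZ domains, was the 1 tested marker with the higher mean in CKO. It was dim, at -3.93, -4.38 and -4.67 in WT and -3.61, -4.57 and -3.38 in CKO. The genotypes overlapped, and the difference of 0.47 (SE 0.35, 95% interval -0.32 to 1.27) had a limma adjusted p of 0.999. Within pool numbers it was 0.32, -0.19 and 1.29. Both other Pdzd2 probes were not well above background on at least 7 of the 8 arrays, and their differences were 0.12 and 0.01.

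**Figure D2:**
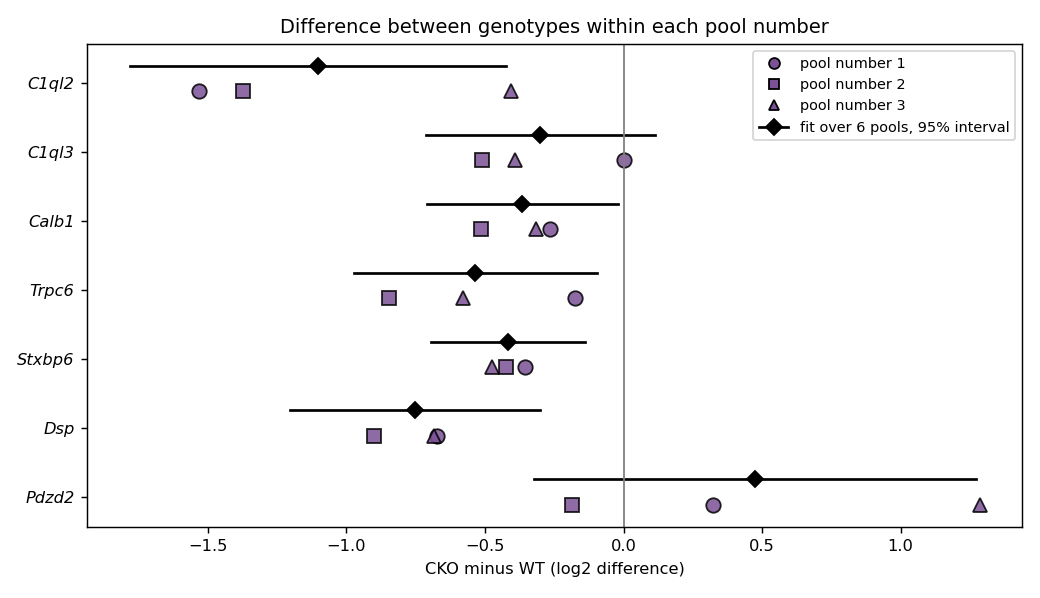
CKO minus WT on the log2 scale for each tested marker, with the fit over 6 pools and its 95% interval as a diamond and bar, and the difference within pool numbers 1, 2 and 3 as a circle, square and triangle. The plot shows 5 genes below 0 in all 3 pool numbers, C1ql3 is at 0.00 in pool number 1, and Pdzd2 lies on both sides of 0.

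The 3 markers that came below the filter gave no group difference that could be read. Prox1 was well above background on 2 of 4 WT and 3 of 4 CKO arrays. Its processed signal was 205, 180 and 77.4 on the first arrays of WT pools 1 to 3 and 148, 168 and 185 on those of CKO, with 60.4 and 72.6 on the second arrays of pool 1. In a fit without the filter its difference was 0.17 (SE 0.33), and the limma adjusted p was 0.964. Tdo2, the tryptophan dioxygenase that opens the kynurenine pathway, was well above background on 3 of 4 arrays in each genotype, and its signal ran from 118 to 331 in WT and from 123 to 331 in CKO. Its difference without the filter was -0.25 (SE 0.28, adjusted p 0.964). Without the second array of WT pool 1 it passed the filter through the WT arrays alone, at -0.32 (SE 0.23, adjusted p 0.479), with overlapping pools. Npnt, an extracellular matrix ligand of integrins, has 2 probes, and neither was well above background on any of the 8 arrays. The Prox1 reading therefore gives no check of granule neuron identity or number in these samples, while C1ql2, C1ql3, Calb1, Trpc6, Stxbp6 and Dsp were detected on all 8 arrays.

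**Figure D3:**
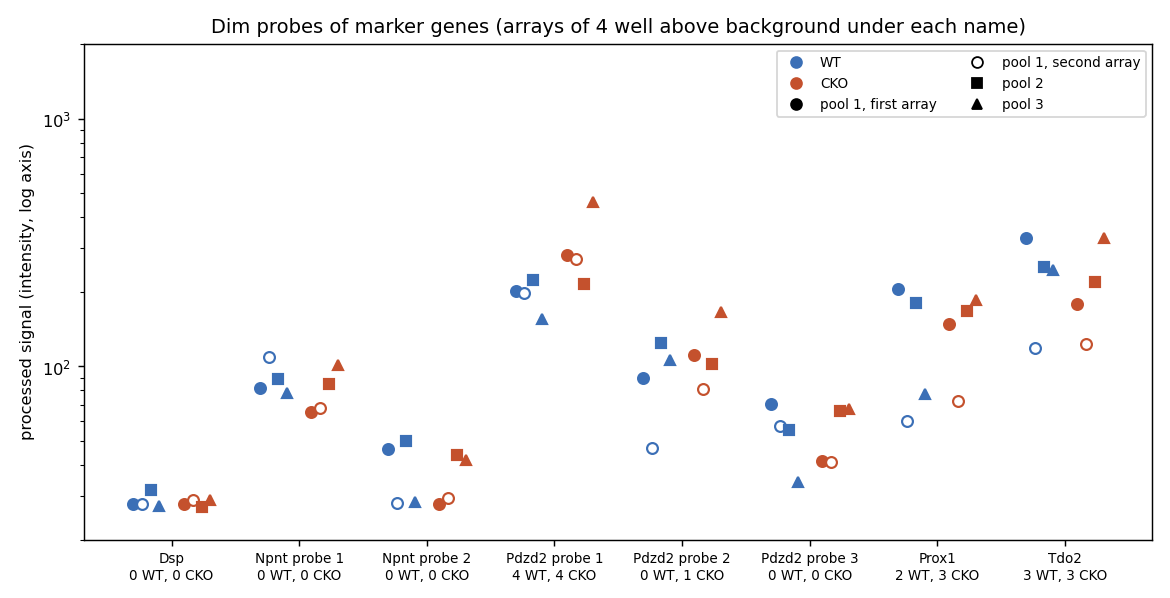
Processed signal on a log axis of the 8 dimmest probes of the marker genes on each of 8 arrays, by genotype (colour) and pool (symbol), with the number of 4 arrays on which the probe was well above background written under each name. Pdzd2 probe 1 is the 1 probe shown that was tested, and the WT and CKO points overlap for every probe drawn.

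The arrays lay on 2 slides that each held both genotypes, slide 1 with pool 2 and the first arrays of pool 1, and slide 2 with pool 3 and the second arrays of pool 1. On slide 1 alone the difference was -1.38 for C1ql2, a call at a limma adjusted p of 0.0196 where 0.0314% of all genes were called lower, -0.87 for Dsp, -0.69 for Trpc6, -0.49 for Calb1, -0.44 for Stxbp6, -0.40 for C1ql3 and 0.23 for Pdzd2. On slide 2 alone it was -1.05 for C1ql2, -0.60 for Dsp, -0.36 for Stxbp6, -0.20 for Trpc6, -0.19 for Calb1, -0.05 for C1ql3 and 0.65 for Pdzd2. Each gene had the same sign on both slides, and the 2 slides were furthest apart for Trpc6 and Pdzd2. No marker was called on slide 2 alone, where each adjusted p was close to 1, and 0 of the 7 had an unadjusted p under 0.05. With the slide as a block over all arrays C1ql2 was at -1.14 (adjusted p 0.676), Dsp at -0.75 (adjusted p 0.785) and Trpc6 at -0.51.

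Both second arrays of pool 1 departed from the first arrays in the same direction for all 7 genes, and the WT array by more. The second reading minus the first was -1.08 in WT and -0.48 in CKO for C1ql3. It was -1.10 and -0.38 for Trpc6, -0.52 and -0.19 for Dsp, -0.47 and -0.05 for Calb1 and -0.33 and -0.11 for Stxbp6. For Pdzd2 it was 1.03 and 0.39. These shifts between arrays of the same RNA were as wide as the difference between genotypes for C1ql3, Calb1, Trpc6 and Pdzd2 in the WT pool, so the values of pool 1 for these genes carry an array error of that order.

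Leaving that WT array out altogether, 138 of 18737 genes were called (0.737%), 67 of them lower (0.358%). Of the 8 markers then tested, 7 were lower in CKO and 2 were called, Dsp and Trpc6. With the pool number as a block on the same arrays 65 genes were called, 22 of them lower (0.117%), and Dsp was the 1 marker among them. In 6 of the 8 the highest CKO pool was below the lowest WT pool, against 12.2% of all genes, and 6 were lower in each pool number, against 23.6%. The median difference was -0.48. These are the shares to set beside those with the array included, since both the markers and the rest of the genes moved.

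**Figure D4:**
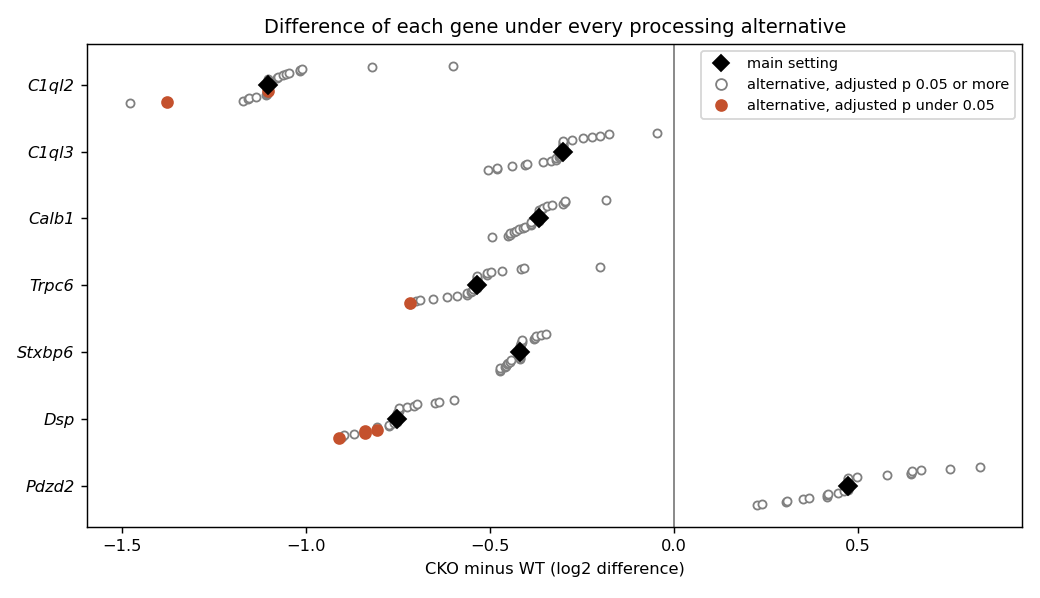
CKO minus WT on the log2 scale for each tested marker as reported (black diamonds) and under 29 alternative settings (circles, filled where the limma adjusted p was under 0.05). Every circle lies on the same side of 0 as its diamond, C1ql2 was called under 2 settings, Dsp under 4, Trpc6 under 1 and the other 4 genes under none.

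A further 14 genes known from granule neurons served as a companion list, and 12 of them were tested. Of these, 9 were lower and 3 higher in CKO, with a median of -0.12, and none was called. There were 4 with an unadjusted limma p under 0.05, each of them lower, against 2.56% of all genes. In all, 6 were lower in every pool number, against 13.9% of all genes, and 1 was higher in every pool number, against 14.1%. Gabrd, the delta subunit of the extrasynaptic GABA-A receptor that granule neurons carry on their dendrites, was at 1.43 ± 0.33 in WT and 0.77 ± 0.05 in CKO (SD, n = 3), and all CKO pools lay below the WT pools. Its difference was -0.67 (SE 0.17, adjusted p 0.425). Fam163b and Lct also had all CKO pools below the WT pools, with differences of -0.48 (SE 0.15, adjusted p 0.642) and -0.41 (SE 0.15, adjusted p 0.793). With Gabrd they made 3 of the 12 that separated in that direction, against 5.62% of all genes. Plk5, with -0.67, and Tiam1, with -0.41 (SE 0.27), overlapped. Dock10, Synpr, Rfx3, Sv2c and Cntnap5a lay between -0.14 and 0.04. The metabotropic receptor Grm2 was at 0.37 (SE 0.29) and overlapped. Slc29a4 was the gene higher in every pool number, at 0.14 (SE 0.11), with overlapping pools. Without the second array of WT pool 1, 7 of the 12 were lower and the median was -0.21.

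Genes of newborn granule neurons and their progenitors, which divide and mature at the inner edge of the granule layer in adult mice, did not move one way. Of 12 such genes 8 were tested, 3 were lower and 5 higher, none was called, and the median was 0.07. The list turned to 5 lower and 3 higher, with a median of -0.05, when the second array of WT pool 1 was left out. Dcx, which marks immature neurons, differed by -0.21 (SE 0.17, adjusted p 0.999), and Sox4 by -0.35 (SE 0.15, adjusted p 0.900). Neurod1, which granule neurons keep into maturity, differed by 0.41 (SE 0.32). Hilar mossy cells, the glutamatergic neurons that mossy fibres contact in the hilus, had 4 of 5 genes tested, with 1 lower, 3 higher and a median of 0.04, or 0.21 without that array.

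Genes of other neurons were counted in the same way. Of 7 tested CA1 pyramidal genes 6 were lower, with a median of -0.10. Of the 7, 3 had all CKO pools below the WT pools, against 5.62% of all genes. There were 4 lower, and the median was -0.03, when the second array of WT pool 1 was left out. Wfs1, the endoplasmic reticulum membrane protein wolframin, was at 2.64 ± 0.15 in WT and 1.72 ± 0.06 in CKO (SD, n = 3). Its difference was -0.91 (SE 0.12), with a limma adjusted p of 0.119 that became 0.0164 with the pool number as a block and 0.00425 without the second array of WT pool 1. Of 7 tested CA2 and CA3 genes 4 were lower with a median of -0.03, or 3 with a median of 0.12 without that array, and Map3k15 was lowest at -0.78 (SE 0.20, adjusted p 0.398). Rgs14 was higher by 0.24 (SE 0.12, limma adjusted p 0.981), with all CKO pools above the WT pools. The general neuron list of 8 genes had 4 lower, 4 higher and a median of -0.04, and without that array 6 lower, 2 higher and a median of -0.04. Tubb3, a neuronal tubulin, was the lowest of it at -0.55 (SE 0.16, limma adjusted p 0.579), with all CKO pools below the WT pools, and without the array it was called at -0.61 (adjusted p 0.0498). Nefl and Slc17a7 had all CKO pools above the WT pools, at 0.44 (SE 0.16, limma adjusted p 0.806) and 0.35 (SE 0.14, adjusted p 0.855). The share of all genes with all CKO pools above the WT pools was not counted, and that with all below was 5.62%. The interneuron list of 9 had 5 lower, 4 higher and a median of -0.01, which turned to 2 lower, 7 higher and 0.05 without the array. Npy was higher by 0.42 (SE 0.13, limma adjusted p 0.605), with all CKO pools above the WT pools. The summed level of the general neuron list, as its mean per pool relative to the WT mean, was -0.08 to 0.06 in WT and -0.04 to 0.04 in CKO. For the 7 granule markers the same measure was -0.10 to 0.13 in WT and -0.55 to -0.32 in CKO, without overlap. The CA1 list did not overlap either, at -0.08 to 0.11 in WT and -0.36 to -0.16 in CKO. Nor did the other dentate granule genes, by a narrow margin, at -0.117 to 0.132 in WT and -0.323 to -0.125 in CKO. Without the second array of WT pool 1 the general neuron list was at -0.10 to 0.05 in WT and -0.06 to 0.02 in CKO. The 8 markers then tested, Tdo2 included, were at -0.13 to 0.08 in WT and -0.59 to -0.30 in CKO. The CA1 list was then at -0.02 to 0.02 in WT and -0.30 to -0.10 in CKO. The other dentate granule genes were at -0.067 to 0.035 in WT and -0.273 to -0.075 in CKO.

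**Figure D5:**
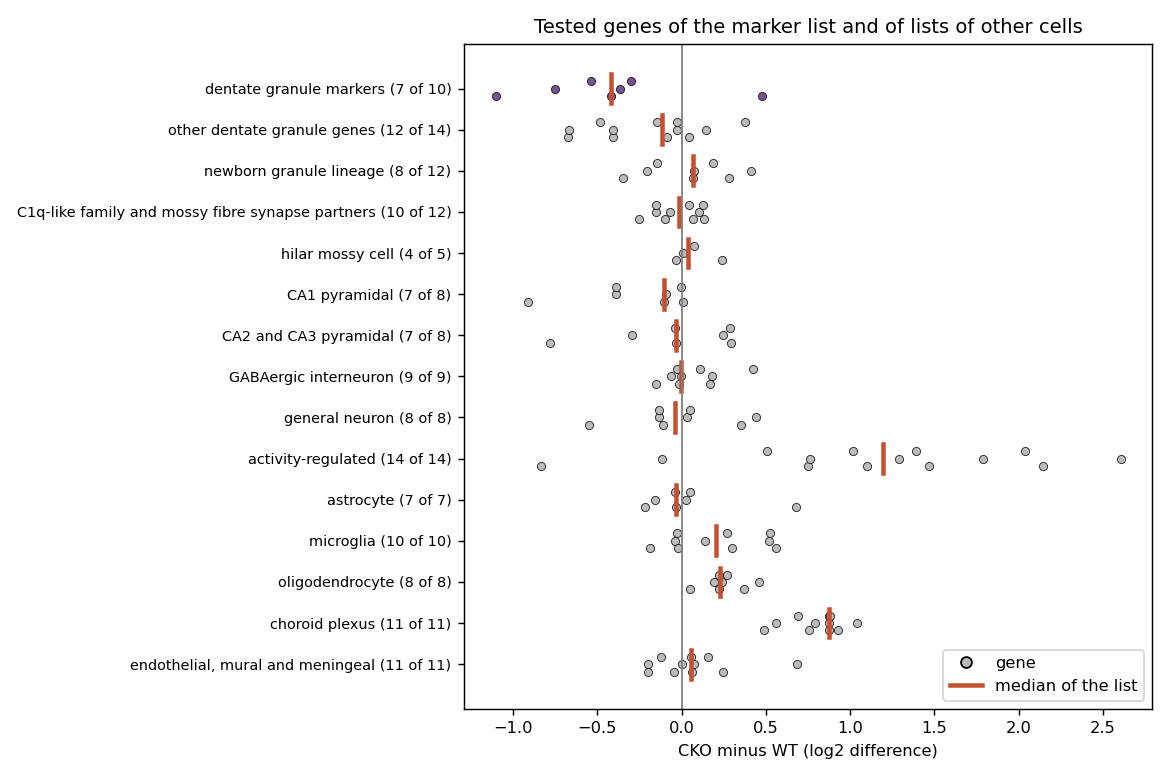
CKO minus WT on the log2 scale for every tested gene of the marker list (purple) and of 14 companion lists (grey), with the number tested of the number listed and the median of each list as a bar. The marker median is at -0.42, that of the other dentate granule genes at -0.12, and those of the CA1, CA2 and CA3, interneuron and general neuron lists between -0.10 and -0.01.

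Some lists of other cells stood higher in CKO. All 11 choroid plexus genes were tested and all 11 were higher in CKO, with a median of 0.87, and the mean of the list was -1.13, 0.42 and 0.71 in the WT pools and 0.94, 0.98 and 0.47 in the CKO pools. All 8 oligodendrocyte genes were higher too, with a median of 0.23 and list means of -0.06 to 0.11 in WT and 0.21 to 0.29 in CKO. Of 10 microglia genes 6 were higher (median 0.20), of 7 astrocyte genes 3 were (median -0.03), and of 11 endothelial, mural and meningeal genes 7 were (median 0.06). Without the second array of WT pool 1 the medians were 0.79 for choroid plexus, 0.32 for oligodendrocytes, 0.23 for microglia (8 of 10 higher), -0.05 for astrocytes and 0.01 for the endothelial, mural and meningeal list (6 of 11 higher). None of these genes was below the filter, and none was called without the block, with or without that array. Gfap, the filament protein of astrocytes, differed by 0.68 (SE 0.18, limma adjusted p 0.506) without the block. It was called with the block, at a limma adjusted p of 0.0464. The mean of the 7 markers was -0.03, 0.13 and -0.10 in WT pools 1, 2 and 3 and -0.42, -0.55 and -0.32 in the CKO pools. Each pool number holds 1 pool per genotype. The part of the cells of these lists in the marker differences was not tested.

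The activity-regulated list differed most from one CKO pool to another. Its 14 genes had 12 higher and 2 lower in CKO, a median of 1.19 (1.24 without the second array of WT pool 1), and list means of 0.23, -0.08 and -0.15 in the WT pools and 2.10, -0.19 and 1.50 in the CKO pools. CKO pool 2 was thus close to the lowest WT pool. The marker means of the same pools are those given above, with 1 pool per genotype in each pool number. The part of the activity-regulated genes in the marker differences was not tested. Penk, the enkephalin precursor, which granule and other neurons make, ran against its list. Its difference was -0.83 (SE 0.15), with a limma adjusted p of 0.185 that became 0.0228 with the block and 0.0345 without the second array of WT pool 1. Inhba and Gadd45b, both higher and with overlapping pools, were also called with the block. They differed by 2.61 (limma adjusted p 0.0467) and 1.29 (adjusted p 0.0488).

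The genes whose 6 pool values followed the mean centred profile of the 7 markers most closely were Lrrc59, with a Pearson correlation of 0.984, Marf1 with 0.981, Rer1 and Kcnf1 with 0.978 each, and Ipcef1 with 0.975. These were picked from all genes by that measure over 6 pools that share arrays and scaling, and they carry no test. Lrrc59 read 0.13, 0.21 and -0.04 in the WT pools and -0.34, -0.46 and -0.31 in the CKO pools. Kcnf1, a silent potassium channel subunit of neurons, read -0.08, 0.05 and -0.16 in WT and -0.45, -0.62 and -0.25 in CKO. Their differences were -0.47 (SE 0.14, adjusted p 0.577) and -0.38 (SE 0.15, adjusted p 0.854).

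The promoters of the markers were read for what they share. RefSeq on GRCm38.p6 gave 11 entries for 9 of the 10 genes, and the 250 bases before the start of each were searched on both strands. The CTCF core consensus was in 0 of the 11, and in 0.508% of 32851 promoters. TGACGTCA, the cyclic AMP response element, was in 0 of the 11 and in 1.55% of all. TATAAA was in 2, those of Prox1 and Tdo2, and in 12.4% of all. None of these motifs contains another, and no match says only that the letters are not in this window. A CpG count above the median of all promoters, which was 6, was found in 10 of the 11. The 3 shown are those of the markers called in at least 1 setting, C1ql2 at chr1:120340332-120340581 (plus strand, 20 CpG, GC 68.8%), Dsp at chr13:38151044-38151293 (plus strand, 22 CpG, GC 72.4%) and Trpc6 at chr9:8543892-8544141 (plus strand, 12 CpG, GC 56.4%), each on GRCm38.p6 with its CpG dinucleotides in capitals.
C1ql2: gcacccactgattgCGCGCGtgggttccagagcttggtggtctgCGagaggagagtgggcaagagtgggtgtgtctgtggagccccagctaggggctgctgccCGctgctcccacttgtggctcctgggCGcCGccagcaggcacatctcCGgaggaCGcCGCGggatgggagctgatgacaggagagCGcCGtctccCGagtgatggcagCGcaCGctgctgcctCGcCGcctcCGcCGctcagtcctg
Dsp: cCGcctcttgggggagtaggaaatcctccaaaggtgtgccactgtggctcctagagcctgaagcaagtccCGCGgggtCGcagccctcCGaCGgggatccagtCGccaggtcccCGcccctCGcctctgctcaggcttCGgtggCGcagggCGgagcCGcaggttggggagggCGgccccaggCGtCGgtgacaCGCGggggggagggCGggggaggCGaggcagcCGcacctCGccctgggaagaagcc
Trpc6: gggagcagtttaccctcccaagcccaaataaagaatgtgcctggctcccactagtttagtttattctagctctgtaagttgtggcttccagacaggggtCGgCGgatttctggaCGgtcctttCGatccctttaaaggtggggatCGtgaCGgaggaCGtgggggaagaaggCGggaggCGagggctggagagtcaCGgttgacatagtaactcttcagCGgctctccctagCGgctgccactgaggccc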

How the data were processed

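Expression in the hippocampus was measured on 8 one-colour Agilent arrays of 6 pools. Each deposited scanner file holds 1 intensity per spot, background-subtracted by Agilent Feature Extraction 11.5.1.1 per the file headers (11.5 in the submitters' processing notes). The series' value table, whose intensities are those of the authors and are not log-transformed, ranked spots exactly as the background-subtracted signal did on all 8 arrays. Its column medians lay between 651.7 and 944.0, no further scaling is stated for it, and it served as an alternative.

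For each array the log2 of the deposited processed signal minus its 75th percentile over non-control spots was taken, flagged outlier spots were left out, and replicate spots, then the arrays of 1 pool, were averaged. Of 39429 probes, 23648 were kept, those detected (well above background in at least 0.5 of their spots) throughout WT or throughout CKO. The brightest kept probe stood for a gene. The array design names mm9. Probes were named through the RefSeq table of GRCm38.p6 by accession (27508) or by symbol (3544) or synonym (404), and 7973 were left with the array's own name. All 15 marker probes matched.

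The 2 genotypes were compared with limma 3.58.1 in R 4.3.3 (lmFit, then eBayes with an intensity trend), with Benjamini-Hochberg adjustment over 18336 genes, a threshold of 0.05 and two-sided tests. With 3 pools against 3, an exact permutation test of 1 gene cannot go below 0.10, so none is given. The script was tested on simulated data. The alternatives changed the block, the slide, the scaling, the background, the filter, the probe rule and the arrays included. That of leaving out the second array of WT pool 1, and those of leaving out GAA-repeat probes or keeping outlier spots, were chosen after seeing the data. Depth has no counterpart on arrays, and the number of pools limits the precision. Pools hold different mice per the labels, and the spread between them holds both biological and array error.

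Same-numbered pools have the same sexes and ages per the labels, and their deviations from the group means correlated at 0.55, 0.33 and 0.13, each over 0.1, so the numbers were taken to pair the samples. The highest correlation between pools of unlike number was 0.12, close to the 0.13 of pool number 3. On first arrays alone the correlations were 0.09, 0.08 and 0.12, not all of them over 0.1, and the highest of unlike number was 0.04. The pairing thus rests in part on the second arrays of pool 1, and a shift that they share cannot be told apart from it.

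The marker genes and all gene lists were chosen with earlier results of these data known. The text names every marker, Ctcf, up to 3 genes of smallest p from a companion list (for some lists none), and the 5 genes most like the mean marker profile. Adgrb3, Grm2, Plk5, Tiam1, Slc29a4 and the other genes of the dentate list given by range were named after their values were seen.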

Additional observations from a re-analysis of the deposited data

Results flagged for a closer look

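The 7 tested markers, the 3 genes of smallest p of each companion list and 8 of the other list genes named above were checked, 57 in all. Tiam1 and Slc29a4 were not among the 57. Of the 57, 7 moved one way between the female pools and the other way between the male pools. Over all 133 tested genes of the lists 52 did. Most of the 57 were picked by a small p over the same pools, which favours genes whose pool numbers agree in sign. The 2 counts are therefore not compared. The female and male pools are pool numbers 2 and 3, with 1 pool per genotype and sex. They also differ in age, and the difference between them was not tested. Pdzd2 was -0.19 (CKO minus WT, log2) in the female pools and 1.29 in the male pools, a gap of 1.47. Neurod1 was -0.04 in the female pools and 0.84 in the male pools, a gap of 0.89. Cntnap5a was -0.31 and 0.33, a gap of 0.64, and Rfx3 was -0.26 and 0.14, a gap of 0.40, both on the dentate list. Vip, a peptide of interneurons, was -0.11 and 0.32, a gap of 0.43. The myelin gene Mag was 0.90 and -0.14, a gap of -1.04. Sostdc1, on the choroid plexus list, was 0.59 and -0.05, a gap of -0.64.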

How the results depend on the processing

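All 7 tested markers kept their sign under each of the 29 alternatives. The count of called genes, 5 as reported, was 103 with the replicate block (pool numbers), 69 with the block and quantile scaling, 56 with the block and no GAA-repeat probes, 73 with the block and outlier spots kept, and 65 with the block and no second array of WT pool 1. It was 138 without that array and no block, 139 with only the first array of pool 1, 273 with array weights, 12 on slide 1 alone, 8 with every probe tested and 3 from the authors' value table. It was 0 with only the second array of pool 1 and 0 on slide 2 alone, where limma gave 458 and 270 genes an unadjusted p under 0.05. Leaving out each pool in turn gave 0 to 21 genes, with 21 without WT pool 1, 2 without CKO pool 1 and 0 without WT pool 3 or CKO pool 3 (734 and 627 genes at an unadjusted p under 0.05). The count of called markers, 0 as reported, was 1 with the block (C1ql2), 1 with the block and no second array of WT pool 1 (Dsp), 1 with the first array only (Dsp), 1 on slide 1 alone (C1ql2), 1 with array weights (Dsp) and 2 without the second array of WT pool 1. It was 0 without any 1 pool, with 3 to 6 markers lower at an unadjusted limma p under 0.05. The 6 came without WT pool 1, where 1695 of 18336 genes were lower at that threshold. Without CKO pool 3, 3 markers and 218 of 18333 genes were. Pdzd2 was higher at that threshold without CKO pool 2, by 0.83 (unadjusted p 0.0291). Without the second array of WT pool 1 the block ended the call of Trpc6 (limma adjusted p 0.0417 to 0.0629). Apart from that and the call of C1ql2 in the main setting, the block changed no marker call among the settings run both ways. The median marker difference was -0.20 on slide 2 alone and between -0.50 and -0.38 when each pool was left out. C1ql2 was -0.60 with array weights (adjusted p 0.134), and from -1.48 without WT pool 3 to -0.82 without WT pool 1. Signal over background limits Prox1, Tdo2, Npnt and Pdzd2.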
